A study of Homo sapiens with 8 samples.

Results

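The 47 mRNAs described here encode the protein core of the spliceosome and of the complex that assembles its particles. They were taken by gene symbol from a list of spliceosome genes, and all 47 were found among the 59414 genes of the count table. The spliceosome removes introns from pre-mRNA. It is built from small nuclear ribonucleoproteins (snRNPs), each a small nuclear RNA with its proteins. Most of these RNAs, though not U6, carry a ring of 7 Sm proteins (SNRPB, SNRPD1, SNRPD2, SNRPD3, SNRPE, SNRPF and SNRPG) and further proteins of their own. The SMN complex loads the Sm ring onto the RNA in the cytoplasm. U1 marks the 5′ splice site, U2 with the SF3A and SF3B complexes marks the branch point, U5 joins with U4/U6 as the tri-snRNP, and the Prp19 complex stabilises the active form. All of these proteins work in or pass to the nucleus, while their mRNAs are translated in the cytoplasm, where P-bodies form.

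The study asked which mRNAs associate with processing bodies (P-bodies), granules of the cytoplasm in which repressed mRNA collects with proteins of decapping and decay. All 8 libraries came from HEK293T, an established human embryonic kidney line, and all carried the PB-TRIBE-STAMP system in their titles. TRIBE marks RNA near a tagged protein by changing adenosine to inosine (A-to-I) with an ADAR deaminase domain, and STAMP by changing cytidine to uridine (C-to-U) with an APOBEC deaminase. The 4 groups held 2 libraries each. P-bodies purified by sorting (50 ng of RNA, labelled as total RNA) were set against cytosol (100 ng, labelled as cytoplasmic RNA). Cells given an siRNA against EDC4, a scaffold protein of the decapping machinery, were set against cells given a control siRNA, siNC (500 ng of each, labelled as polyA RNA). The protein that carries the editors to P-bodies is not named in the labels, and nothing says whether the cells were 1 clone. No library lacked the editors, so editing or base variants from other sources count in every score. In the sort, fraction, input amount and labelled RNA type went together and cannot be told apart.

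The sort libraries held 21186963 to 23716926 counts over genes. The editing tables held 12048147 to 15947999 reads per sort library and 5697417 to 6294767 per knockdown library. The 2 sorted libraries differed from each other more than the 2 cytosol libraries did (22.5 against 3.00 by chi-square over genes, per degree of freedom). The siNC libraries differed in reads by close to sampling noise (1.02 per degree of freedom). They were therefore summed and treated as 1 sample, and the siEDC4 libraries (3.46) alone gave the spread in the knockdown tests. The labels do not state separate cultures for libraries of 1 group, so p-values cover only the spread between libraries, which may be technical. Of the genes used to check the line, NEFL, NEFM, VIM, LIN28B and HOXB9 stood at 20.8 CPM or more in every sort library, PTPRC, HBB, ALB, KRT5 and CD3E stood at 0.470 CPM or less, and COL1A1, a fibroblast collagen, stood at 9.30 to 20.7 CPM.

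The start of the coding sequence is shown for 5 of the mRNAs because their codon composition and length differ in the ways compared below. Each is the spliced coding strand from the start codon in GENCODE 29 (GRCh38), 5′ to 3′, and capitals mark G or C at the third codon position, where codon choice is mostly free. SNRPG, whole from start to stop codon, has capitals in 32 of 77 codons and spans chr2:70281634-70293649 on the minus strand. SNRPA has 36 of 50 (chr19:40751409-40757408, plus strand) and its paralog SNRPB2 has 24 of 50 (chr20:16731703-16732249, plus strand). SF3B1 has 18 of 50 (chr2:197423853-197434999, minus strand) and PRPF8 has 32 of 50 (chr17:1683652-1684571, minus strand).
SNRPG: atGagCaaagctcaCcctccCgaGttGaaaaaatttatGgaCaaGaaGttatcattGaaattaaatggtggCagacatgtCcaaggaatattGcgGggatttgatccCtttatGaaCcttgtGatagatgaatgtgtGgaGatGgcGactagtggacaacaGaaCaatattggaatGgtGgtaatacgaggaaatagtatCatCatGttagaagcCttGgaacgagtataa
SNRPA: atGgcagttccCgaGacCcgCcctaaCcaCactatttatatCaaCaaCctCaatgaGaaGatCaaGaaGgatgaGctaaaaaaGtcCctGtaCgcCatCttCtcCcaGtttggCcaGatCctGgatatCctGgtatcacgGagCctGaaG
SNRPB2: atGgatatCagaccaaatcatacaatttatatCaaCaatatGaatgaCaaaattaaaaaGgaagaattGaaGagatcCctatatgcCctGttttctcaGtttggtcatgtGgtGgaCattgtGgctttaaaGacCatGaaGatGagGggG
SF3B1: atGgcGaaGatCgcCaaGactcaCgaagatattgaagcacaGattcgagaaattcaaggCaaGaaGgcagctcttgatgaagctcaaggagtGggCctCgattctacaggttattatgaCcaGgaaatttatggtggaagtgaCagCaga
PRPF8: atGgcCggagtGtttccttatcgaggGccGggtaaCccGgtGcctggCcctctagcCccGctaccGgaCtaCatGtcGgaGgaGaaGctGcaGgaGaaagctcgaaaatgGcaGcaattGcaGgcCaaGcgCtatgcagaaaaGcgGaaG

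In the sort, mRNAs of the small Sm proteins were depleted from P-bodies, while those of the large U5 proteins PRPF8, SNRNP200 and EFTUD2 were enriched. All 47 mRNAs passed the filter on low counts. Of them 14 rose and 26 fell in the sorted particles (edgeR's quasi-likelihood test, with an adjusted p under 0.05 over all genes), where 28.8% of all 18745 genes rose and 29.0% fell. The median log2 fold change was -0.48 over the 47 and -0.03 over all genes. Among the 7 Sm mRNAs 6 fell and 0 rose (median -0.91), and among 8 large U5 and SF3 mRNAs 5 rose and 3 fell (median 0.60). The difference between the medians was -1.51, and it was -1.49 in batch 1 and -1.51 in batch 2. The large set was not uniform, with a median of 0.84 over its 4 U5 mRNAs and -0.25 over its 4 SF3 mRNAs. A level is given here as CPM, counts scaled to the TMM-adjusted library size. It is a share of the RNA in a fraction, so fewer copies of an mRNA and more of other RNA cannot be told apart. Over 2-fold, 4 of the 47 rose and 12 fell, against 14.7% and 9.79% of all genes. Scaled by library size alone, all genes had a median of -0.23, and 4257 rose and 6911 fell, in place of 5401 and 5440.

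**Figure D1:**
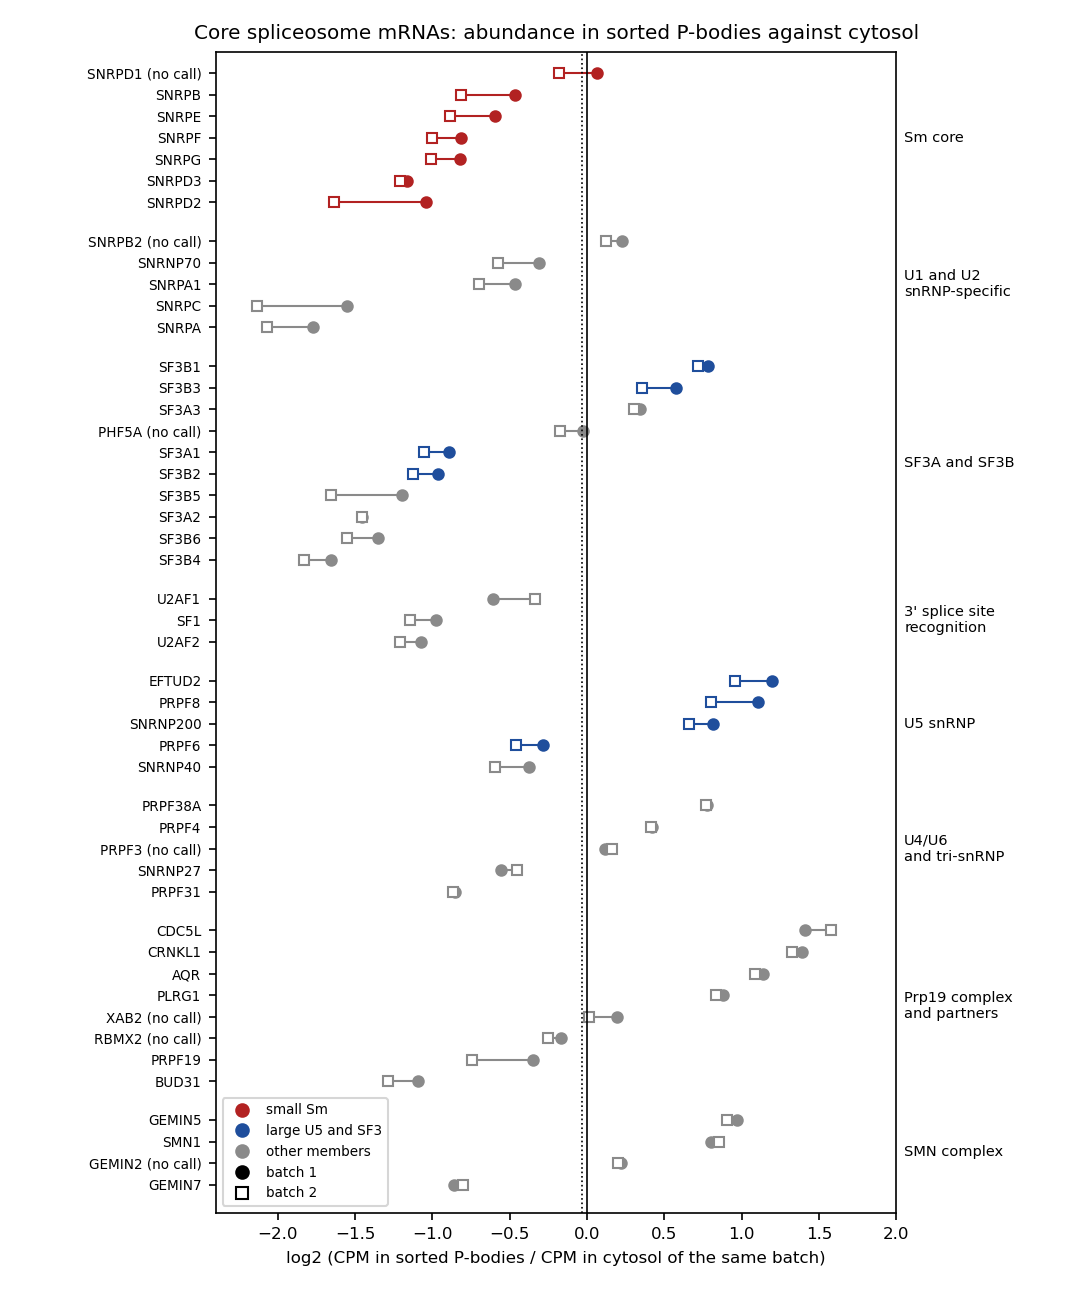
Log2 ratio of CPM in sorted P-bodies over cytosol for each of the 47 mRNAs, grouped by role, with batch 1 as filled circles, batch 2 as open squares and the median of all genes as a dotted line. Sm mRNAs lie left of 0 except SNRPD1 in batch 1, and PRPF8, SNRNP200, EFTUD2, SF3B1 and SF3B3 lie right of 0 in both batches.

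All 7 Sm ring mRNAs had estimates below 0, of different sizes. SNRPD2 stood at 48.1 and 35.1 CPM in the sorted particles against 99.0 and 109 CPM in cytosol (log2 fold change -1.32 ± 0.15, SE, adjusted p = 5.3e-05, edgeR). SNRPD3 stood at 18.6 and 18.7 CPM against 41.6 and 43.3 CPM (-1.19 ± 0.10, adjusted p = 1.2e-05, edgeR). These were the largest falls of the ring, and in both mRNAs the 2 fractions did not overlap. SNRPG, the smallest coding sequence of the 46 measured, stood at 35.8 and 32.8 CPM against 63.4 and 66.0 CPM (-0.92 ± 0.10, adjusted p = 5.1e-05, edgeR). SNRPF stood at 25.5 and 23.7 CPM against 44.9 and 47.5 CPM (-0.91 ± 0.10, adjusted p = 5.6e-05, edgeR). Both fell by close to the median of the ring. SNRPE stood at 81.0 and 72.1 CPM against 122 and 133 CPM (-0.74 ± 0.11, adjusted p = 0.00035, edgeR). SNRPB, which encodes the B and B′ proteins by alternative splicing, stood at 50.2 and 43.0 CPM against 69.3 and 75.6 CPM (-0.63 ± 0.11, adjusted p = 0.00098, edgeR). SNRPD1 was the member of the ring that did not pass, at 84.9 and 76.1 CPM against 81.3 and 86.4 CPM (-0.06 ± 0.11, adjusted p = 0.66, edgeR), and its fractions overlapped. The annotation lists 20 pseudogenes named after SNRPG, 9 after SNRPE, 4 after SNRPF, 2 after SNRPD2 and 1 after SNRPB. Reads of these genes could be split between copies, so their counts are uncertain.

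Of the mRNAs for U1-specific proteins, which recognise the 5′ splice site, SNRPA and SNRPC had the largest falls of all 47. SNRPA, an RNA-binding protein of the U1 stem-loop, stood at 32.4 and 29.9 CPM in the sorted particles against 110.4 and 126 CPM in cytosol (-1.92 ± 0.11, adjusted p = 3.2e-06, edgeR). SNRPC, which contacts the 5′ splice site, stood at 41.3 and 30.6 CPM against 121 and 134 CPM (-1.83 ± 0.15, adjusted p = 9.2e-06, edgeR), and the annotation lists 18 copies named after it. SNRNP70 fell less, from 250.3 and 246 CPM in cytosol to 202 and 165 CPM (-0.44 ± 0.12, adjusted p = 0.013, edgeR). Of the U2-specific pair, SNRPA1 fell by 0.58 on the log2 scale (62.8 and 56.5 CPM against 87.0 and 91.9 CPM, adjusted p = 0.0011, edgeR). Its partner SNRPB2, the paralog of SNRPA, stood at 62.8 and 65.7 CPM against 53.7 and 60.5 CPM (0.17 ± 0.11, adjusted p = 0.19, edgeR). The value of SNRPB2 was -0.03 under library-size scaling and passed at 0.19 without sorted library 1 (adjusted p = 0.019, edgeR). SNRPA and SNRPB2 thus lay at opposite ends of the class, with 76.3% and 38.5% G or C at the third codon position. The rest of the class did not follow this share: SNRPC, at 48.8%, fell nearly as far as SNRPA. SNRNP70, at 68.9%, fell less than SNRPA1, at 48.0%.

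SF3A and SF3B, which hold U2 at the branch point, did not move as 1 unit: 3 of their 10 mRNAs rose and 6 fell (median -1.01). SF3B1, the large scaffold that encloses the branch-point helix, stood at 592 and 626 CPM in the sorted particles against 345 and 381 CPM in cytosol (0.75 ± 0.11, adjusted p = 0.00036, edgeR). SF3B3, another large scaffold, stood at 786 and 711 CPM against 528 and 557 CPM (0.47 ± 0.11, adjusted p = 0.0062, edgeR). SF3B1 rose and so did SF3B3, although SF3B3 no longer passed without cytosol library 1 (0.41, adjusted p = 0.19) or 2 (0.49, adjusted p = 0.10, edgeR) or under library-size scaling (0.27, adjusted p = 0.075, edgeR). SF3B2 stood at 144 and 133 CPM against 281 and 291 CPM (-1.04 ± 0.11, adjusted p = 3.5e-05, edgeR). SF3A1 stood at 107 and 101 CPM against 198 and 211 CPM (-0.97 ± 0.11, adjusted p = 4.8e-05, edgeR). Both are large subunits, and both fell by close to the median of the 10. Of the 6 smaller subunits 4 lay lower still. SF3B4, which contacts RNA upstream of the branch point, fell by 1.75 on the log2 scale (19.7 and 19.8 CPM against 62.2 and 70.5 CPM, adjusted p = 3.6e-06, edgeR). SF3B6 (p14), which sits at the branch-point adenosine, fell by 1.46, SF3A2 by 1.45 and SF3B5 by 1.41 (adjusted p from 5.4e-06 to 2.0e-05, edgeR). SF3A3 rose by 0.32 (adjusted p = 0.023, edgeR), a call that was lost under library-size scaling (0.12), without the filter on low counts (0.28) and without cytosol library 1 (0.28) or 2 (0.33). PHF5A did not pass (-0.10, adjusted p = 0.42, edgeR).

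The 3 proteins that read the 3′ splice site before U2 binds all fell. U2AF2, which binds the polypyrimidine tract, stood at 104 and 97.3 CPM in the sorted particles against 219 and 225 CPM in cytosol (-1.14 ± 0.11, adjusted p = 1.9e-05, edgeR). SF1, the first branch-point binding protein, fell by 1.06 (adjusted p = 3.3e-05, edgeR). U2AF1, which binds the AG at the intron end, was counted at 8.13 and 9.04 CPM against 12.4 and 11.4 CPM (-0.48 ± 0.14, adjusted p = 0.013, edgeR). It has a near-identical copy, U2AF1L5, at 2.46 ± 0.31 CPM in the sorted particles against 4.21 ± 0.048 CPM in cytosol (SD, n = 2 each), so its level is uncertain, and its call was lost by DESeq2 (-0.44, adjusted p = 0.085) and without cytosol library 1 (-0.44, adjusted p = 0.12, edgeR).

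At the catalytic core, the 3 largest U5 mRNAs rose. PRPF8, the scaffold that holds the splice sites and the longest coding sequence of the 46 measured (7008 nt), stood at 2257 and 2004 CPM in the sorted particles against 1051 and 1150.3 CPM in cytosol (0.95 ± 0.12, adjusted p = 0.00013, edgeR). SNRNP200 (Brr2), the helicase that unwinds U4/U6, stood at 1035 and 1013 CPM against 589 and 641 CPM (0.74 ± 0.11, adjusted p = 0.00038, edgeR). EFTUD2 (Snu114), the GTPase of U5, stood at 392 and 372 CPM against 171 and 191 CPM (1.07 ± 0.11, adjusted p = 3.8e-05, edgeR). In each of the 3 both sorted libraries lay above both cytosol libraries. PRPF6, which bridges U5 and U4/U6, went the other way at 62.2 and 57.5 CPM against 75.8 and 79.1 CPM (-0.37 ± 0.10, adjusted p = 0.011, edgeR), and SNRNP40, a small U5 protein, fell by 0.49 (adjusted p = 0.0034, edgeR). PRPF6 no longer passed without cytosol library 1 (-0.42, adjusted p = 0.086) or 2 (-0.35, adjusted p = 0.16, edgeR), nor SNRNP40 without cytosol library 2 (-0.44, adjusted p = 0.086, edgeR). Per kilobase of exon, PRPF8 was still among the most abundant of the 47 in cytosol at 97.0 CPM per kb, behind SF3B6 (133) and SNRPC (103), and EFTUD2 stood at 17.9 CPM per kb.

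Among U4/U6 and tri-snRNP mRNAs, PRPF38A, needed for activation, rose by 0.77 (adjusted p = 0.00021, edgeR) and PRPF4 by 0.42, while PRPF31, which clamps the U4 RNA, fell by 0.86 (adjusted p = 5.6e-05, edgeR) and SNRNP27 by 0.51. PRPF3, the partner of PRPF4, did not pass (0.14, adjusted p = 0.27, edgeR). The Prp19 complex and its partners held the largest rises of the 47. CDC5L, a Myb-like core subunit, stood at 369 and 471 CPM in the sorted particles against 139 and 158 CPM in cytosol (1.50 ± 0.14, adjusted p = 2.1e-05, edgeR). CRNKL1, a scaffold of tetratricopeptide-like repeats, stood at 124 and 137 CPM against 47.4 and 54.6 CPM (1.35 ± 0.12, adjusted p = 1.3e-05, edgeR). AQR, an intron-binding helicase, rose by 1.11 and PLRG1 by 0.86, so that 4 of the 8 rose. PRPF19 itself, the ubiquitin ligase that names the complex, fell by 0.55 (adjusted p = 0.0035, edgeR) and BUD31 by 1.19 (adjusted p = 1.5e-05, edgeR), and XAB2 and RBMX2 did not pass.

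The SMN complex divided too. GEMIN5, its large snRNA-binding subunit, stood at 243 and 240.5 CPM in the sorted particles against 124 and 128 CPM in cytosol (0.94 ± 0.11, adjusted p = 5.3e-05, edgeR). GEMIN7, a small subunit, fell by 0.83 (14.9 and 16.1 CPM against 27.0 and 28.1 CPM, adjusted p = 0.00014, edgeR). SMN1 rose by 0.83 (28.0 and 29.6 CPM against 16.1 and 16.4 CPM, adjusted p = 0.00012, edgeR). Its near-identical copy SMN2 stood at 24.1 ± 1.91 and 14.5 ± 0.63 CPM (SD, n = 2 each) and rose by 0.73 (adjusted p = 0.00044, edgeR), so reads of the 2 genes cannot be assigned with certainty. GEMIN2 did not pass (0.21, adjusted p = 0.099, edgeR). In 45 of the 47 mRNAs the 2 fractions did not overlap, which also held for 80.5% of all 18745 genes tested. The sign was the same in batch 1 and batch 2 for 46 of the 47, among them each of the 40 with a call. With 2 libraries per group a call nearly requires this, so it adds no support to the calls.

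Of 74 other spliceosome genes listed for comparison, 73 were tested, 29 rose and 20 fell (median 0.12). CWC22, which links the spliceosome to the exon junction complex, had the largest rise at 225 ± 120.0 CPM against 33.7 ± 2.98 CPM (SD, n = 2 each; 2.74 ± 0.31, SE, adjusted p = 5.2e-05, edgeR). The kinase PRPF4B rose by 1.89 and U2SURP by 1.68. The largest falls were those of RBM10, a regulator of alternative splicing (-1.23), the Sm-like LSM2 (-1.19) and the cyclophilin PPIH (-1.08). Of the 7 Sm-like LSM mRNAs 4 fell, namely LSM2, LSM3, LSM4 and LSM7, and LSM8 rose by 1.00, a group picked out after its values were seen.

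A-to-I editing was compared to see which mRNAs had a higher share of edited reads in the sorted fraction. Where in the cell the editing took place was not tested. A gene's editing score is the percentage of its reads that are edited. A rise in sorted P-bodies was general, with 73.5% of 11303 genes higher and 1.09% lower and a median log2 odds ratio of 1.46. Of the 46 spliceosome mRNAs listed (SF3B6 was not listed), 39 rose and 0 fell by the edgeR test on edited and unedited reads (median 1.70, or 1.57 with the 2 mRNAs without an edited read in cytosol placed at their bound). Those 2, GEMIN7 and U2AF1, entered the test through the sorted libraries only, so no fall could be called for them. The Sm ring and the large subunits changed order here: 6 of 7 Sm mRNAs and 5 of 8 large ones rose, with medians of 1.76 and 0.74. That difference between medians was 0.83 in batch 1 and 1.13 in batch 2, opposite in sign to the one in abundance. Within the large set the median was 0.23 over 4 U5 mRNAs and 1.38 over 4 SF3 mRNAs, the latter near that of all genes.

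**Figure D2:**
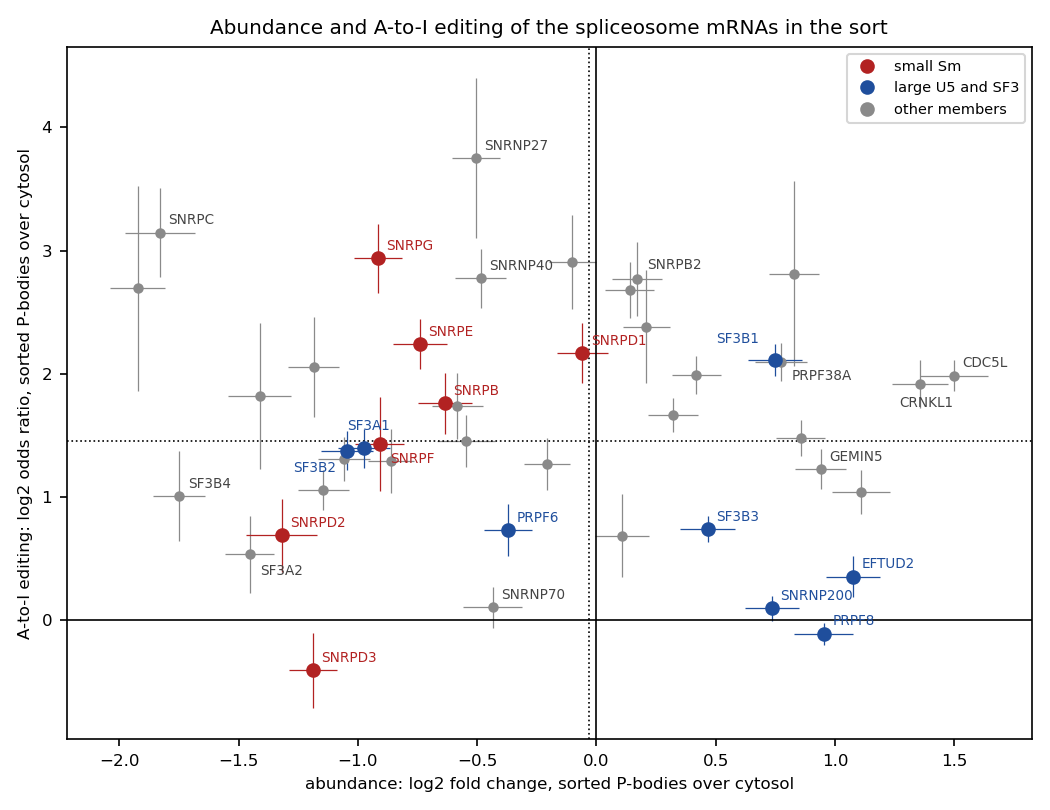
Log2 fold change of abundance (horizontal) against log2 odds ratio of A-to-I editing (vertical), sorted P-bodies over cytosol, for 44 mRNAs with an edited read in cytosol, with bars of 1 SE and dotted lines at the medians of all genes. PRPF8, SNRNP200 and EFTUD2 lie to the right with a log2 odds ratio under 0.4, and SNRPE and SNRPG lie to the left with one over 2.

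SNRPG had the highest Sm score in the particles, with 67 of 548 and 47 of 423 reads edited in sorted libraries 1 and 2 (12.2% and 11.1%) and 17 of 1145 and 23 of 1212 in cytosol libraries 1 and 2 (1.48% and 1.90%; log2 odds ratio 2.94 ± 0.28, SE, adjusted p = 1.0e-07, edgeR). SNRPE had 111 of 1105 and 90 of 828 reads edited against 44 of 1848 and 48 of 1986 (2.24 ± 0.20, adjusted p = 6.5e-08, edgeR). SNRPD1 scored 7.51% and 6.77% against 1.78% and 1.60% (2.17 ± 0.25, adjusted p = 7.2e-07, edgeR). These 3 also exceeded the general rise when each library was centred on the median score of its genes (1.58, 0.88 and 0.81, adjusted p = 0.00024, 0.0024 and 0.019, edgeR). SNRPB scored 7.81% and 8.76% against 2.89% and 2.29% (1.76 ± 0.25, adjusted p = 8.3e-06, edgeR). SNRPF scored 5.12% and 6.57% against 1.89% and 2.52% (1.43 ± 0.38, adjusted p = 0.0030, edgeR). For both, the rise was close to that of all genes and neither passed once centred. SNRPD2 scored 5.25% and 7.59% against 4.86% and 3.06% (0.69 ± 0.30, adjusted p = 0.045, edgeR). Its call was lost with limma on log2 scores (0.57, adjusted p = 0.11) and without sorted library 1 (1.01, adjusted p = 0.052), sorted library 2 (0.44, adjusted p = 0.33) or cytosol library 2 (0.37, adjusted p = 0.27, edgeR). SNRPD3 stood apart at 7.09% and 7.39% against 8.81% and 9.95% (-0.41 ± 0.30, adjusted p = 0.23, edgeR), the highest cytosolic score of the 46, and once centred it was lower (-1.78, adjusted p = 0.00012, edgeR).

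Of the large subunits, PRPF8 had 1482 of 32210 and 1073 of 23417 reads edited in the particles (4.60% and 4.58%) and 986 of 19676 and 1052 of 21603 in cytosol (5.01% and 4.87%; -0.11 ± 0.09, adjusted p = 0.27, edgeR). SNRNP200 scored 5.28% and 5.24% against 5.14% and 4.73% (0.10 ± 0.10, adjusted p = 0.39, edgeR). EFTUD2 scored 3.77% and 2.95% against 2.55% and 2.77% (0.35 ± 0.17, adjusted p = 0.064, edgeR). None of these 3 U5 mRNAs, which rose in abundance, passed a change in score, although EFTUD2 passed without sorted library 2 (0.51, adjusted p = 0.039) or cytosol library 2 (0.42, adjusted p = 0.047, edgeR). PRPF8 had at least 19676 reads in each library, SNRNP200 at least 11418 and EFTUD2 at least 3525. The score of PRPF8 differed by 0.93-fold between groups. In simulated data the same test called 59% of genes set to a log2 change of 1, so a change without a call may have been missed. PRPF6, the U5 protein that fell in abundance, scored 7.08% and 8.36% against 4.83% and 4.68% (0.73 ± 0.21, adjusted p = 0.0046, edgeR; without sorted library 2, 0.61, adjusted p = 0.059). Once centred, all 4 large U5 mRNAs were lower, from -0.63 for PRPF6 to -1.48 for PRPF8 (adjusted p from 3.9e-12 to 0.021, edgeR). The small U5 protein SNRNP40 had the opposite result, 7.26% and 6.32% against 0.993% and 1.12% (2.77 ± 0.24, adjusted p = 3.7e-08, edgeR).

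The large SF3 mRNAs all rose in A-to-I score, whichever way their abundance went. SF3B1 had 1012 of 8432 and 928 of 7240 reads edited in the particles (12.0% and 12.8%) and 248 of 6832 and 208 of 7557 in cytosol (3.63% and 2.75%; 2.11 ± 0.13, adjusted p = 1.7e-09, edgeR). SF3A1 scored 9.70% and 11.5% against 4.67% and 3.93% (1.39 ± 0.16, adjusted p = 8.4e-07, edgeR). SF3B2 scored 6.54% and 6.48% against 2.78% and 2.45% (1.37 ± 0.16, adjusted p = 7.9e-07, edgeR). SF3B1 lay above the general rise once centred (0.75, adjusted p = 2.5e-05, edgeR), while SF3A1 and SF3B2 lay on it (0.03 and 0.01). SF3B3 rose less than most genes, at 6.71% and 7.06% against 4.28% and 4.19% (0.74 ± 0.10, adjusted p = 8.0e-06; centred -0.62, adjusted p = 2.6e-05, edgeR).

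Elsewhere the widest A-to-I change among mRNAs with edited reads in every group was that of SNRNP27, a tri-snRNP protein, with 18 of 230 and 28 of 198 reads edited against 8 of 492 and 0 of 427 (3.75 ± 0.65, adjusted p = 6.5e-05, edgeR). SNRPC, depleted by abundance, scored 9.50% and 8.83% against 1.73% and 0.573% (3.15 ± 0.36, adjusted p = 7.7e-07, edgeR), and SNRPB2 scored 7.83% and 7.53% against 0.829% and 1.52% (2.77 ± 0.30, adjusted p = 4.2e-07, edgeR). SNRPA had 7 of 528 and 15 of 369 reads edited against 18 of 2188 and 0 of 2469 (2.69 ± 0.83, adjusted p = 0.0078, edgeR), so that its cytosolic reads came from 1 library. SNRNP70 did not pass, at 3.41% and 3.39% against 3.16% and 3.20% (0.10 ± 0.17, adjusted p = 0.58, edgeR). GEMIN7 had 18 of 237 and 21 of 187 reads edited in the particles and is listed with 0 of 559 and 0 of 577 in cytosol. With 3 edited reads in the cytosol group as the limit, its share over both sorted libraries was 34.8-fold that limit, if no filter on sites produced the listed 0. Such limits cover only counting error in cytosol, not that in the particles, and reads of 1 PCR product are not independent molecules. U2AF1, with 3 edited reads of 231 against 0 of 499, passed in the main fit (adjusted p = 0.031) and not with the replicate block (0.062), nor without cytosol library 1 (0.11) or 2 (0.10, edgeR). CDC5L and PRPF38A reached the highest scores of all, 17.3% and 19.3% and 17.0% and 18.3%, against 5.51% and 5.20% and 5.39% and 4.17% in cytosol. Over all 46, each library centred, 15 rose and 8 fell, where 18.7% of all genes rose and 11.5% fell. The 8 were PRPF8, SNRNP200, EFTUD2, PRPF6, SNRPD3, SNRNP70, SF3A2 and SF3B3. Without centring SF3A2 did not pass (0.53, adjusted p = 0.13, edgeR) but did without cytosol library 1 (0.88, adjusted p = 0.019, edgeR).

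C-to-U scores were compared in the same libraries. There 67.9% of 10613 genes rose and 0.311% fell, with a median log2 odds ratio of 2.33. SNRPD2 was not listed, and of the 46 spliceosome mRNAs listed 43 had an edited read in at least 2 libraries and were tested. Of these 32 rose and 0 fell (median 3.63, or 3.32 with mRNAs at 0 in cytosol placed at their bound). Among the 32, SNRPA, SNRPC, SNRPA1, SF3B6, SF1, PRPF31, SNRNP27 and GEMIN7 had no edited read in cytosol. They entered the test through the sorted libraries only, so no fall could be called for them. Of 6 Sm mRNAs 4 rose (median 3.69) and of 7 large ones 4 rose (median 1.88), the 4 being the SF3 subunits. The difference between these medians, 1.81, had the sign of the A-to-I difference and was 2.37 in batch 1 and 2.14 in batch 2. But it rested on few edited reads. It ran from 1.21 without cytosol library 1 and 1.37 without sorted library 2 to 3.36 without cytosol library 2. Within the large set the median was 3.76 over 4 SF3 mRNAs and 0.96 over the 3 U5 mRNAs tested. The large median thus lay below the Sm median through the U5 mRNAs, and the SF3 mRNAs lay near the ring.

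**Figure D3:**
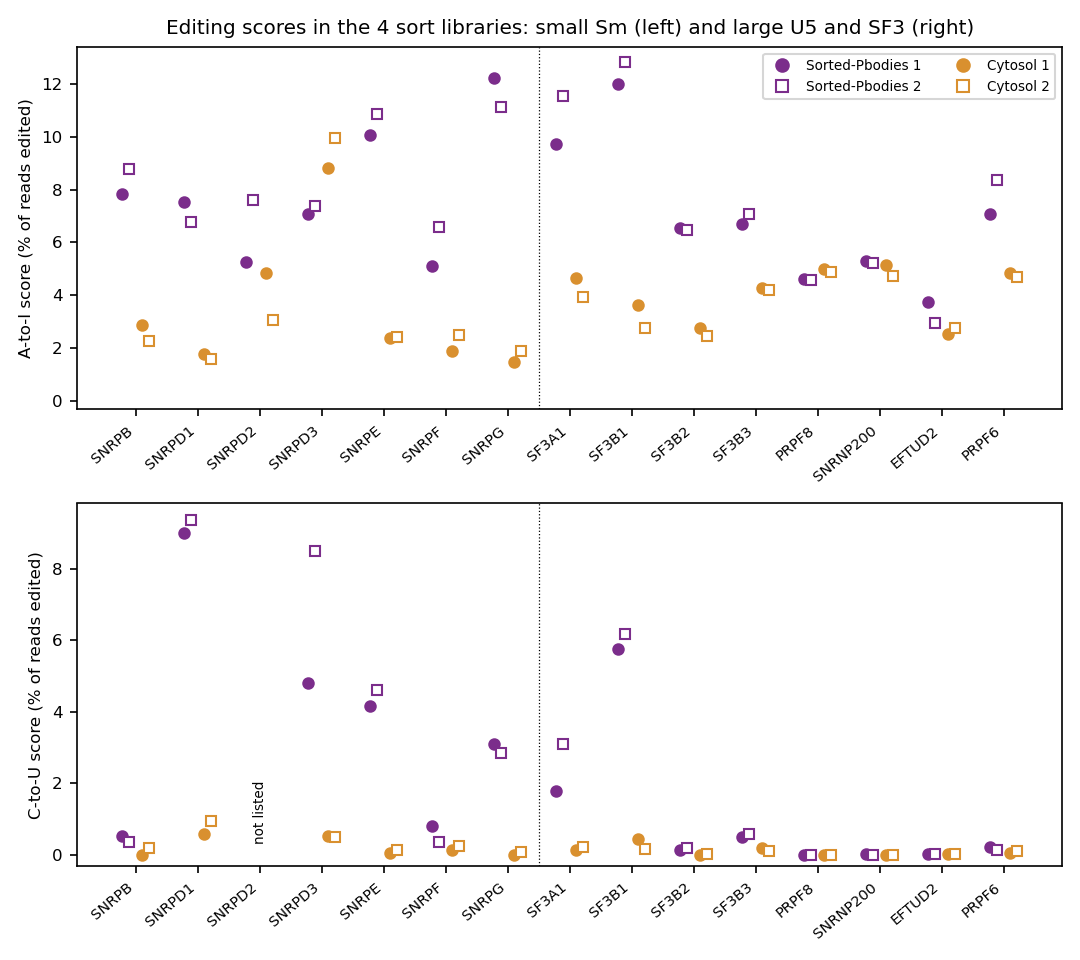
Editing score (percentage of reads edited) of the 7 Sm mRNAs (left) and 8 large U5 and SF3 mRNAs (right) in each sort library, A-to-I above and C-to-U below; purple marks sorted P-bodies and orange cytosol. For PRPF8 all 4 A-to-I scores lie between 4.58% and 5.01% and all 4 C-to-U scores at 0, while SF3B1 and SNRPG separate the fractions with both editors.

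SNRPD1 had the highest C-to-U score of the ring, with 107 of 1190 and 82 of 876 reads edited in the particles (8.99% and 9.36%) and 8 of 1398 and 14 of 1492 in cytosol (0.572% and 0.938%; 3.70 ± 0.34, adjusted p = 4.1e-06, edgeR). SNRPE had 46 of 1107 and 38 of 825 against 1 of 1845 and 3 of 1987 (5.36 ± 0.51, adjusted p = 4.8e-06, edgeR). SNRPG had 17 of 550 and 12 of 421 against 0 of 1144 and 1 of 1212 (5.85 ± 0.81, adjusted p = 6.2e-05, edgeR). All 3 separated the fractions with both editors. SNRPD3, which the A-to-I editor did not separate, had 12 of 250 and 16 of 188 against 4 of 741 and 4 of 790 (3.68 ± 0.59, adjusted p = 0.00018, edgeR). SNRPB had 4 of 767 and 2 of 546 reads edited against 0 of 1386 and 3 of 1525 (2.09 ± 1.11, adjusted p = 0.12, edgeR) and passed without cytosol library 2 (5.61, adjusted p = 0.014, edgeR). SNRPF had 3 of 367 and 1 of 269 against 1 of 740 and 2 of 792 (1.64 ± 1.10, adjusted p = 0.20, edgeR).

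Among the large subunits SF3B1 had 474 of 8214 and 435 of 7049 reads edited in the particles (5.77% and 6.17%) and 30 of 6763 and 13 of 7501 in cytosol (0.444% and 0.173%; 4.38 ± 0.32, adjusted p = 1.3e-06, edgeR). SF3A1 had 30 of 1688 and 39 of 1262 against 5 of 3963 and 10 of 4353 (3.73 ± 0.46, adjusted p = 2.9e-05, edgeR). Both rose well beyond the spread between libraries. SF3B3 rose from 19 of 10074 and 11 of 10602 to 56 of 11415 and 49 of 8366 (1.88 ± 0.35, adjusted p = 0.00056, edgeR), and SF3B2 rose on few edited reads, from 0 of 5264 and 1 of 5428 to 3 of 2206 and 3 of 1619 (3.78 ± 1.20, adjusted p = 0.015, edgeR). With limma on log2 scores neither passed (adjusted p = 0.060 and 0.058), and SF3B2 did not pass without sorted library 1 (0.076) or 2 (0.10, edgeR). PRPF8 is listed with 0 edited reads of 32153, 23351, 19615 and 21559, a share of up to 0.00541% in sorted P-bodies and 0.00729% in cytosol at the limit of 3 reads per group. SNRNP200 had 6 of 15238, 0 of 12072, 1 of 11368 and 1 of 12406 reads edited, and EFTUD2 had 2 of 5935, 1 of 4507, 1 of 3511 and 1 of 3991. Neither SNRNP200 (1.25 ± 1.23, adjusted p = 0.38) nor EFTUD2 (0.03 ± 0.39, adjusted p = 0.94, edgeR) passed. PRPF6 had 2 of 956 and 1 of 710 reads edited against 1 of 1610 and 2 of 1667 and did not pass either (0.96, adjusted p = 0.49, edgeR).

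C-to-U scores also parted the fractions for mRNAs outside these sets. SF3B6 had 51 of 811 and 52 of 648 reads edited in the particles and is listed with 0 of 2274 and 0 of 2514 in cytosol. Its share over both sorted libraries was 113-fold the same limit in cytosol, with counting error in the particles left out. SNRPB2 had 139 of 952 and 122 of 823 against 6 of 1083 and 3 of 1248 (14.6% and 14.8% against 0.554% and 0.240%; 5.43 ± 0.39, adjusted p = 1.2e-06, edgeR). SF1 had 13 of 2243 and 12 of 1674 against 0 of 5761 and 0 of 6090, a share 25.2-fold its limit in cytosol. PRPF38A and CDC5L scored 9.78% and 9.74% and 9.67% and 10.2% in sorted P-bodies against 1.30% and 1.06% and 2.06% and 1.25% in cytosol. With each library centred, 15 of 43 rose and 0 fell, where 11.8% of all genes rose and 4.15% fell.

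Across the 3 readings of the sort, 42 of the mRNAs and 10506 genes in all were tested in each. Of the 42, 10 rose in abundance and in both scores, as did 32.6% of all these genes, namely SF3A3, SF3B1, SF3B3, PRPF4, PRPF38A, CDC5L, CRNKL1, PLRG1, AQR and SMN1. Another 14 fell in abundance and rose in both scores, as did 16.7% of all these genes, among them SNRPE, SNRPG, SNRPA, SNRPC, SNRPA1, SF3A1, SF3B2 and U2AF2. Of the 14, SNRPA, SNRPC, SNRPA1, SF1, PRPF31, SNRNP27 and GEMIN7 had no C-to-U edited read in cytosol, so only a rise could be called. SNRNP200 and EFTUD2 were the 2 of the 42 that rose in abundance with no call in either score, a pattern held by 2.44% of all these genes. PRPF8 also rose with no A-to-I call and was untested for C-to-U. Ranked across the 46 mRNAs with both values, abundance and A-to-I changes had a Spearman's rho of -0.041, and of 0.156 over 11303 genes. For abundance and C-to-U rho was -0.418 over 43 mRNAs and -0.047 over 10613 genes. Between the 2 scores it was 0.574 over 42 mRNAs and 0.517 over 10506 genes. These are descriptions across genes that share their libraries and read depths.

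The coding sequences differed in length and codon composition, and the changes were ranked against both. The 7 Sm coding sequences ran from 231 to 696 nt (median 357) and 7 of the large ones from 2382 to 7008 nt (median 3654); PRPF6 had no complete coding sequence with an annotated start and stop in the table used. Across 46 mRNAs the abundance change ran with coding length (Spearman's rho 0.572, and 0.375 over 13552 genes) and ran against the share of G or C at the third codon position (-0.374, and -0.530 over all genes). The A-to-I change ran against both, with rho -0.502 for coding length and -0.453 for G or C at the third codon position over 45 mRNAs (-0.209 and -0.373 over 11267 genes). Length thus ordered abundance and A-to-I score in opposite directions, while G or C at the third codon position ordered them in the same direction. As descriptions across genes, these values share libraries, depth and base composition.

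**Figure D4:**
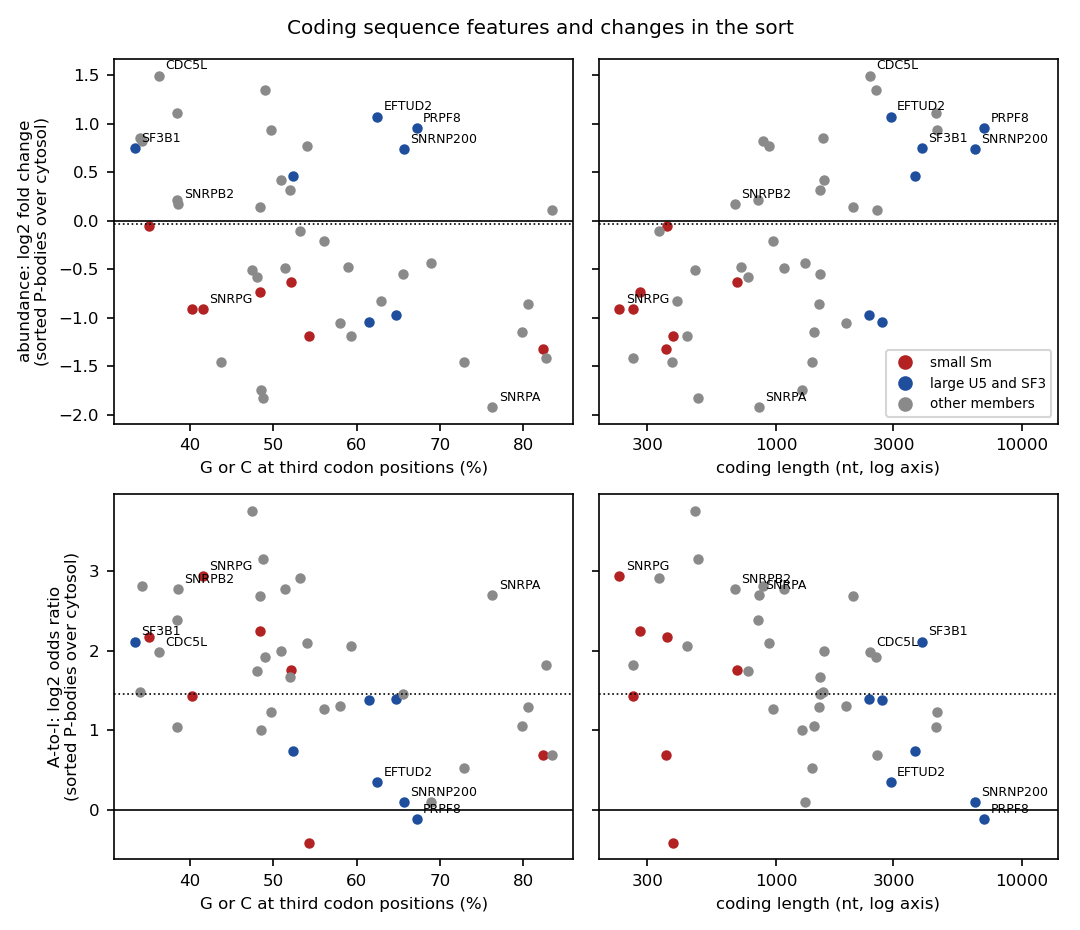
Changes in the sort (abundance above, A-to-I below, log2) against the share of G or C at the third codon position (left) and coding length on a log axis (right), 1 point per mRNA, with the medians of all genes dotted and, for A-to-I, without GEMIN7 and U2AF1, which had no edited read in cytosol. PRPF8, SNRNP200 and EFTUD2, with 62.5 to 67.3% G or C at the third codon position, lie high in abundance and low in A-to-I change, and SF3B1, with 33.3%, lies high in both.

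Among mRNAs with under 50% G or C at the third codon position, 7 of 19 rose and 8 fell in abundance, where 63.5% of all such genes rose and 12.0% fell. With 50% or more, 7 of 27 rose and 17 fell, where 16.2% of all such genes rose and 45.0% fell. In A-to-I score all 18 tested mRNAs of the first class and 20 of 27 of the second rose (91.5% and 62.5% of all genes), and in C-to-U score 17 of 19 and 15 of 23 did (91.4% and 52.4%). The sequences printed above show the range: SF3B1 with 33.3% over its whole coding sequence and PRPF8 with 67.3% both rose in abundance, and SNRPG with 41.6% fell.

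EDC4 knockdown was compared with siNC to see what the loss of a decapping scaffold does to these mRNAs. EDC4 itself stood at 40.3 and 32.7 CPM in the siEDC4 libraries and 110 and 106 CPM in the siNC libraries (log2 fold change -1.56 ± 0.14, SE, adjusted p = 2.6e-25, edgeR). Of 10642 genes 0.432% rose and 0.132% fell. Gene counts covered the sort only, so levels in the knockdown are the reads listed with the A-to-I scores, scaled in the same way. All 46 spliceosome mRNAs listed there were tested, and 0 rose and 0 fell. In the knockdown U2AF1 was listed with C-to-U scores only. XAB2 alone of them had an unadjusted p under 0.05, against 786 of the 10642 genes, and DESeq2 called 0 of the 46. Their changes ran from -0.32 for XAB2 to 0.27 for PHF5A, with a median of -0.07. XAB2 stood at 50.0 and 52.8 CPM against 65.0 and 63.6 CPM (adjusted p = 0.56, edgeR) and passed with the replicate block (-0.32, adjusted p = 0.0499, edgeR).

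**Figure D5:**
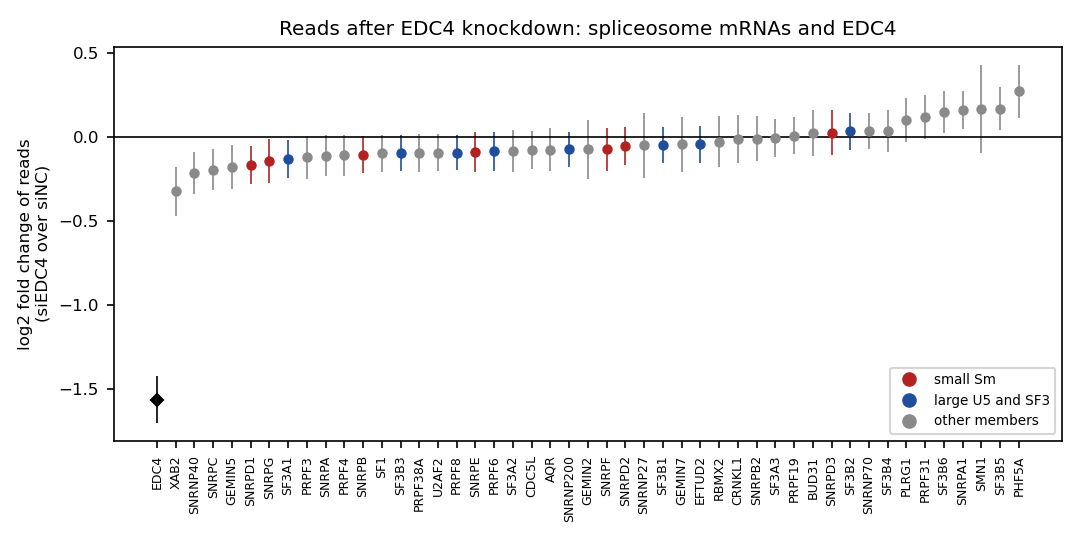
Log2 fold change of reads, siEDC4 over siNC, with bars of 1 SE, for 46 spliceosome mRNAs and EDC4 (black diamond), in order of size. The spliceosome mRNAs lie between -0.32 and 0.27 and EDC4 at -1.56.

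Small Sm and large subunits did not part in the knockdown: their medians were -0.09 and -0.08. SNRPD1, with the largest Sm change, stood at 125 and 140 CPM against 151 and 147 CPM (-0.17 ± 0.12, adjusted p = 0.86, edgeR), and SNRPG at 76.3 and 69.5 CPM against 82.2 and 78.6 CPM (-0.14 ± 0.13, adjusted p = 0.94, edgeR). PRPF8 stood at 893 and 853 CPM against 916 and 945 CPM (-0.09 ± 0.10, adjusted p = 0.97, edgeR). SF3B1 stood at 474 and 482 CPM against 492 and 497 CPM (-0.05 ± 0.11, adjusted p = 0.99, edgeR). None of these 4 passed. The other Sm mRNAs had estimates from -0.10 to 0.03. SNRPB stood at 227 and 233 CPM against 248 and 246 CPM, and SNRPE at 119.6 and 125 CPM against 127 and 134 CPM. SNRPD2 stood at 158 and 185 CPM against 173 and 183 CPM, and SNRPF at 76.5 and 98.7 CPM against 87.8 and 96.5 CPM. SNRPD3 stood at 75.0 and 62.0 CPM against 67.7 and 66.7 CPM. The groups overlapped for SNRPD2, SNRPF and SNRPD3. Among the U5 mRNAs SNRNP200 stood at 655 and 670.1 CPM against 689.7 and 704 CPM, EFTUD2 at 234 and 262 CPM against 251 and 259.7 CPM, and PRPF6 at 131 and 131 CPM against 135 and 142 CPM. Among the SF3 mRNAs SF3A1 stood at 209 and 207 CPM against 228 and 228 CPM, SF3B3 at 497 and 509 CPM against 549.9 and 522 CPM, and SF3B2 at 292 and 302 CPM against 291 and 288 CPM. These 6 had estimates from -0.13 (SF3A1) to 0.03 (SF3B2), and none passed.

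Without siEDC4 library 1, 3 of the 46 rose and 3 fell, and without siEDC4 library 2, 1 rose and 10 fell; in these fits the spread comes from the near-identical siNC libraries alone, and over all genes 791 rose and 815 fell, or 1059 and 1068.

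Editing scores after the knockdown gave no call for any gene. In simulated data, the same tests called 0% (A-to-I) and 3% (C-to-U) of genes set to a log2 change of 1. Of genes set to a log2 change of 3, they called 74.7% and 71%. A gene without a call here may therefore still have changed. For A-to-I 43 spliceosome mRNAs of 9271 genes were tested (0.00% of genes called in either direction by edgeR and by limma), with 0 of the 43 and 503 of all genes under an unadjusted p of 0.05. For C-to-U 43 of 9745 genes were tested, with 5 of the 43 and 409 of all genes under an unadjusted p of 0.05, again with 0.00% called. With the replicate block 30 genes rose and 1 fell for A-to-I and 6 rose and 1 fell for C-to-U, none of them one of the 47. The edited reads of the 2 siNC libraries differed from each other beyond sampling noise (chi-square per degree of freedom 1.30 for A-to-I and 1.31 for C-to-U), and with all 4 libraries as separate samples 0 genes were called for either editor. Median A-to-I scores over all genes tested were 1.41% and 1.48% in the siEDC4 libraries and 1.17% and 1.16% in the siNC libraries. For C-to-U they were 2.14% and 1.86% against 1.77% and 1.77%. In A-to-I score SNRPG had 4 of 464 and 10 of 396 reads edited in siEDC4 and 0 of 512 and 5 of 451 in siNC (log2 odds ratio 1.63 ± 0.84, adjusted p = 0.82, edgeR). SF3B1 had 32 of 2882 and 26 of 2748 against 24 of 3067 and 18 of 2855 (0.54 ± 0.34, adjusted p = 0.82, edgeR). The large U5 mRNA PRPF8 scored 1.03% and 1.63% against 1.30% and 1.34%, and SNRNP200 scored 1.53% and 2.17% against 1.09% and 1.34% (0.61 ± 0.31, adjusted p = 0.82, edgeR). SNRPD3 was again the most edited of the ring, at 14.0% and 13.9% against 11.1% and 16.4%, and its groups overlapped. In C-to-U score SNRPC had 0 of 562 and 3 of 562 reads edited against 16 of 666 and 9 of 633 (-2.80 ± 0.84, adjusted p = 0.99, edgeR), and EFTUD2 had 9 of 1422 and 9 of 1490 against 4 of 1561 and 3 of 1486 (1.41 ± 0.61, adjusted p = 0.99, edgeR).

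The remaining Sm and large mRNAs did not pass in A-to-I score either. The median log2 odds ratio was 0.39 over the 7 Sm mRNAs and 0.23 over the 8 large ones. Over all genes it was 0.30, with 6286 of 9271 above 0, so a small shift upward was general. SNRPB had 18 of 1379 and 19 of 1328 reads edited in siEDC4 against 13 of 1546 and 13 of 1413 in siNC, and SNRPD2 had 19 of 962 and 13 of 1052 against 15 of 1078 and 14 of 1049. SNRPE had 6 of 727 and 20 of 714 against 5 of 789 and 9 of 769, and SNRPF had 5 of 465 and 11 of 562 against 5 of 547 and 8 of 554. SNRPD1 is listed with 0 of 758 and 0 of 800 against 1 of 938 and 3 of 842. In the ring the siEDC4 libraries thus lay above the siNC libraries for SNRPB and below them for SNRPD1. EFTUD2 had 7 of 1421 and 9 of 1493 against 17 of 1564 and 9 of 1491, and PRPF6 had 13 of 795 and 15 of 745 against 11 of 842 and 12 of 818. SF3A1 had 23 of 1273 and 16 of 1182 against 26 of 1423 and 21 of 1307. SF3B2 had 8 of 1773 and 21 of 1719 against 6 of 1816 and 7 of 1652, and SF3B3 had 25 of 3020 and 39 of 2898 against 26 of 3426 and 40 of 2998. Among these 5 large mRNAs the log2 odds ratios ran from -0.63 (EFTUD2) to 1.14 (SF3B2).

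C-to-U scores of the same mRNAs did not pass either. The median log2 odds ratio was -0.05 over 6 Sm mRNAs tested and 0.16 over the 8 large ones. Over all genes it was 0.19, with 6111 of 9745 above 0. In the ring SNRPB had 16 of 1390 and 12 of 1334 reads edited against 9 of 1553 and 17 of 1419, SNRPD1 had 9 of 755 and 8 of 793 against 18 of 939 and 13 of 837, and SNRPE had 10 of 731 and 6 of 714 against 12 of 787 and 6 of 769. SNRPD3 had 29 of 446 and 6 of 334 against 21 of 407 and 13 of 360, and SNRPG had 3 of 466 and 3 of 397 against 4 of 513 and 5 of 450. SNRPD2 had 5 of 964 and 4 of 1050 and is listed at 0 of 1068 and 0 of 1046 in siNC, while SNRPF is listed at 0 in all 4 libraries. PRPF6 went the other way from SNRPD2, listed at 0 of 795 and 0 of 749 in siEDC4 against 6 of 840 and 3 of 821 in siNC (adjusted p = 0.99 for both, edgeR). SNRNP200 had 19 of 3996 and 17 of 3819 against 13 of 4304 and 8 of 4038. SF3A1 had 15 of 1272 and 6 of 1178 against 17 of 1420 and 10 of 1313, SF3B1 had 45 of 2873 and 27 of 2733 against 41 of 3050 and 21 of 2849, and SF3B2 had 6 of 1775 and 11 of 1725 against 5 of 1822 and 5 of 1659. The groups overlapped for SF3A1 and SF3B1. SF3B3 scored 4.10% and 3.46% against 4.25% and 4.07%, and PRPF8 had 8 of 5438 and 12 of 4845 against 15 of 5707 and 6 of 5434, both overlapping.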

How the data were processed

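The authors deposited a table of gene counts for the sort and, for each comparison and editor, a table of edited reads, all reads and their fraction (the editing score). Per the submitters' processing notes, the tools were FastQC 0.11.9, cutadapt 1.18, STAR 2.7.9a and featureCounts 2.0.1 on hg38. How edited sites were called, and whether strand or multiply mapped reads were considered, is not given in the sources used here. The deposited count and fraction values were used as they stand. The reads and edited reads that the authors deposited in the editing tables were treated as estimated counts per gene and were whole numbers outside 3 broken lines in each file, which were left out. The fraction equalled edited over all reads within 5.0e-08.

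Abundance was tested with edgeR 4.0.16 (quasi-likelihood, TMM, filterByExpr) in R 4.3.3. The test used gene counts in the sort and, in the knockdown, the reads listed with the A-to-I scores. Editing was tested with edgeR on edited and unedited reads with an effect per library, for genes that had edited reads in 2 or more libraries. All p-values were adjusted by Benjamini-Hochberg over all genes tested, with a threshold of 0.05. Alternatives were DESeq2 1.42.0, limma 3.58.1 on log2(score + pseudocount), with pseudocounts of 1.20% (A-to-I) and 0.234% (C-to-U) in the sort and 0.454% and 0.579% in the knockdown, library-size scaling, no filter on low counts, at least 50 reads per library, centring each library on its median score, a replicate block and each library left out. The siNC libraries were summed. The scripts were tested on simulated data. Coding sequences came from GENCODE 29, with 1 transcript per gene, and figures from matplotlib 3.10.9.

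The labels give the replicate number as a batch, so equal numbers pair libraries. The correlation of their deviations from the group means was 0.094 over 13727 genes in the sort and -0.029 over 10362 genes in the knockdown. The 47 genes, their roles and the other gene lists were chosen with earlier results of these data known. Every one of the 47 could be named. Values in every library are given for the 7 Sm and 8 large mRNAs where listed, and otherwise for the largest rise and fall of a role class, with 3 rises and 3 falls among the other spliceosome genes.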

Additional observations from a re-analysis of the deposited data

How the results depend on the processing

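With the replicate block, the changes of call among the 47 mRNAs were those given for U2AF1 and XAB2. In the sort, the difference in median abundance change between Sm and large mRNAs ran from -1.52 to -1.48 with each library left out, and SNRPB2 moved to -0.032 with library-size scaling. In the knockdown, 0 to 3 of the mRNAs rose and 0 to 10 fell with each library left out, 1 fell with the replicate block, and the Sm and large medians differed by -0.037 to 0.0041. Over all genes, the knockdown calls were 46 higher and 14 lower, against 2 and 1 by DESeq2, 47 and 8 with library-size scaling, 111 and 43 with 4 libraries, 303 and 218 with the replicate block and 24 and 8 without siNC library 1.

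For A-to-I, centring each library left 15 of the mRNAs higher and 8 lower, and the difference between Sm and large medians was 0.75 with limma. Centring takes the general rise out of every value and so turned the sign for 15 mRNAs: AQR (-0.32), RBMX2 (-0.097), SF1 (-0.050), SF3B4 (-0.36), EFTUD2 (-1.01), GEMIN5 (-0.14), PRPF31 (-0.070), PRPF6 (-0.63), SF3A2 (-0.83), SF3B3 (-0.62), SNRNP200 (-1.27), SNRNP70 (-1.26), SNRPD2 (-0.67), U2AF2 (-0.31) and XAB2 (-0.67). All genes gave 8304 higher and 123 lower, against 2109 and 1301 centred, and the lower count was 319 with limma, 71 with the replicate block and 43 to 99 with each library left out.

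For C-to-U, centring left 15 higher and turned the sign for 13 mRNAs: AQR (-0.17), RBMX2 (-0.045), U2AF2 (-0.22), EFTUD2 (-2.14), GEMIN5 (-1.25), PRPF6 (-1.27), SF3A2 (-2.30), SF3B3 (-0.37), SNRNP200 (-0.87), SNRPB (-0.093), SNRPF (-0.56), U2AF1 (-1.12) and XAB2 (-1.72). The difference between Sm and large medians was 2.51 with limma and 1.21 to 3.36 with each library left out. EFTUD2 also turned with the replicate block (-0.0054) and ran from -0.29 (without sorted library 1) to 0.25 with each library left out. SF3A2 turned with limma (-0.075) and ran from -0.85 (without cytosol library 1) to 0.82, SNRNP200 from -3.39 (without sorted library 1) to 2.08 and SNRNP70 from -1.32 to 0.87 (without sorted library 1), each on 8 or fewer edited reads in all. GEMIN5 passed without cytosol library 1 (2.14, edgeR adjusted p = 0.0017). All genes gave 7211 higher and 33 lower, against 1249 and 440 centred and 270 lower with limma, or 12 to 23 with each library left out. Beyond centring's own construction, the cause was not tested. Of the single-mRNA values under alternatives, 590 kept direction and call, 35 lost a call, 12 gained one and 29 turned sign. With 2 libraries in a group and few edited reads in small mRNAs, C-to-U scores of Sm mRNAs had limited precision.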

Other observations

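The sort and knockdown tables were made separately, so levels set across them were not tested. SF3B3 had a C-to-U score of 3.46 to 4.25% in the 4 knockdown libraries, but of 0.491% and 0.586% in the 2 sorted libraries and 0.189% and 0.104% in the 2 cytosol libraries. PRPF8 had 6 to 15 reads C-to-U edited in each knockdown library, while it is listed at 0 in all 4 sort libraries. SF3B6 is listed with 0 A-to-I edited reads in all 4 knockdown libraries, and SNRPF, SF3B5 and U2AF1 with 0 C-to-U edited reads there. SNRPD3 had the highest A-to-I score of the Sm ring in the knockdown libraries as in the cytosol libraries.

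GEMIN4, a subunit of the SMN complex outside the 47, stood at 178 ± 4.57 CPM in the sorted particles against 68.0 ± 5.95 CPM in cytosol (mean ± SD, n = 2; log2 fold change 1.39, edgeR adjusted p = 9.5e-06), chosen after its value was seen. The 3 splicing genes with the largest rises outside the 47, CWC22, PRPF4B and U2SURP, had the widest spread between the 2 sorted libraries, with SDs of 120.0, 176 and 204 CPM around means of 225, 489 and 630 CPM.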
